A study of Mus musculus with 16 samples.

Results

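Hedgehog signalling was followed through 8 genes in cultured mouse ovarian follicles: the ligands Ihh and Dhh, the receptor Ptch1, the signal transducer Smo, the transcription factors Gli1, Gli2 and Gli3, and the inhibitor Hhip. They were found as the probe sets annotated to these symbols alone, which were 19 of the 45101 probe sets on the array, and stand for 8 of the 18193 genes with such a probe set. The probe set with the highest mean signal represented each gene, and 6 of the 8 genes (12 of the 19 probe sets) had a mean signal over the filter of 16.6 that a gene needed to be tested. Gli1 and Hhip lay just under it, with mean log2 signals of 4.04 and 3.98 against the filter's 4.18, and Ihh, the next gene up, had 5.46.

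The series asked how anti-Müllerian hormone (AMH), a granulosa cell hormone of the TGF-β family, alters follicular transcripts. Its 16 Affymetrix arrays fall into 4 groups of 4, namely follicles with AMH for 24 h, control follicles at 24 h, follicles with AMH for 12 h and control follicles at 12 h. Treated follicles received 50 ng/ml of recombinant AMH and controls 0 ng/ml, while the medium of all 4 groups held follicle-stimulating hormone at 80 IU/L and luteinizing hormone at 10 IU/L. Preantral to small antral follicles were dissected from female C57BL/6Tac mice, whose age is 8 weeks in the sample labels and 6 to 8 weeks in the design text. The follicles of 8 mice formed the pool of an experiment, so an array stands for a pool of mice and not for an animal. From 6 to 9 follicles went into each array. The AMH and control arrays of an experiment form a pair, which gives 4 pairs at each time. The 4 arrays per group limit the precision.

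In the ovary, granulosa cells of growing follicles make Indian and desert hedgehog, and secreted factors of the oocyte such as GDF9 are known to promote that expression. The ligands act on the theca and interstitial cells outside the follicle wall, where binding to Ptch1 frees Smo and lets Gli factors reach their target genes. Gli1, Ptch1 and Hhip are themselves classical targets of the pathway, and theca cells go on to make androgen with the enzyme Cyp17a1. In whole follicles, fewer cells of a type and less RNA per cell cannot be told apart.

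Most listed cell type markers had a mean signal over the filter, as did 12172 of the 18193 genes, so passing it does not set these markers apart. All 15 oocyte markers, all 10 measured granulosa markers and all 6 measured steroidogenic theca genes had a mean over the filter. So did all 9 measured theca progenitor and fibroblast genes, all 9 endothelial and all 7 surface epithelium genes. Of 11 measured smooth muscle genes 7 did, and of 8 immune genes 6. No listed gene was under a signal of 1, a level below the 10th percentile of all signals, in all arrays of a group. The median signal per array ranged from 27.8 to 40.2, and log2 signals of arrays of a group correlated at 0.955 to 0.974. Changes below are differences of log2(signal + 1.46) between group means, with their standard error (SE) from limma and its adjusted p over 12172 genes; they understate the fold change of genes near the floor.

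Both ligands rose between 12 h and 24 h of culture, with AMH as well as without it. Ihh, which encodes Indian hedgehog and lies on chromosome 1 at 74945315 to 74951672 in GRCm38.p6, had signals of 256, 76.5, 248 and 20.2 in AMH follicles at 24 h (replicates 1 to 4), against 7.58, 21.8, 12.0 and 13.2 in AMH follicles at 12 h. In control follicles its signals were 59.9, 100.01, 167 and 205 at 24 h, against 24.4, 21.3, 22.4 and 12.5 at 12 h. The control groups did not overlap, while replicate 4 of the AMH follicles at 24 h sat among the 12 h arrays. Ihh was 7.15-fold higher at 24 h than at 12 h with AMH, a change of 2.84 (SE 0.62, limma adjusted p = 0.00995), and its mean log2 signals were 6.67 ± 1.69 at 24 h and 3.83 ± 0.56 at 12 h (SD, n = 4). In controls it was 5.76-fold higher, a change of 2.53 (SE 0.62, limma adjusted p = 0.00987), with mean log2 signals of 6.92 ± 0.78 at 24 h and 4.40 ± 0.40 at 12 h (SD, n = 4). The geometric mean signal of AMH follicles at 12 h, 12.8, lay under the filter, so Ihh passed the filter through its 24 h arrays, and these fold changes rest on low signals at 12 h. In order of mean level the groups ran control 24 h, AMH 24 h, control 12 h and AMH 12 h, and neither neighbouring AMH and control group differed beyond its spread.

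Dhh, which encodes desert hedgehog and lies on chromosome 15 at 98881615 to 98898562, had signals of 563, 283, 375 and 219 in AMH follicles at 24 h, against 107, 173, 120 and 115 in AMH follicles at 12 h. Controls had 239.9, 438, 433 and 471 at 24 h, against 147, 133, 73.6 and 137 at 12 h. Every 24 h array exceeded every 12 h array of its arm, as was so for 7.47% of all genes tested with AMH and 11.4% in controls. The change was 1.41 with AMH (SE 0.29, limma adjusted p = 0.00756), or 2.66-fold, and 1.68 in controls (SE 0.29, limma adjusted p = 0.00114), or 3.20-fold. A second Dhh probe set, under the filter, had changes of 0.81 with AMH and 0.95 in controls. It was not called in either arm (limma adjusted p = 0.296 and 0.132 over all probe sets). Its log2 signals correlated at 0.73 with those of the first over the 16 arrays.

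The ligand calls held in most other settings. The Ihh change with AMH ranged from 2.09 to 3.60 over 23 alternatives and stayed called in 21, and it ended without replicate 1 in all 4 groups (2.17, adjusted p = 0.0801) and without replicate 3 (2.38, adjusted p = 0.101). In controls it ranged from 1.94 to 2.95 and ended without replicate 2 (2.65, adjusted p = 0.0514) and without replicate 3 (2.43, adjusted p = 0.054), while the Dhh call with AMH ended without replicate 3 (1.34, adjusted p = 0.0502) and its call in controls held in 24 of 24. Without the single low AMH array at 24 h, the Ihh change with AMH was 3.58 (adjusted p = 0.000674).

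**Figure D1:**
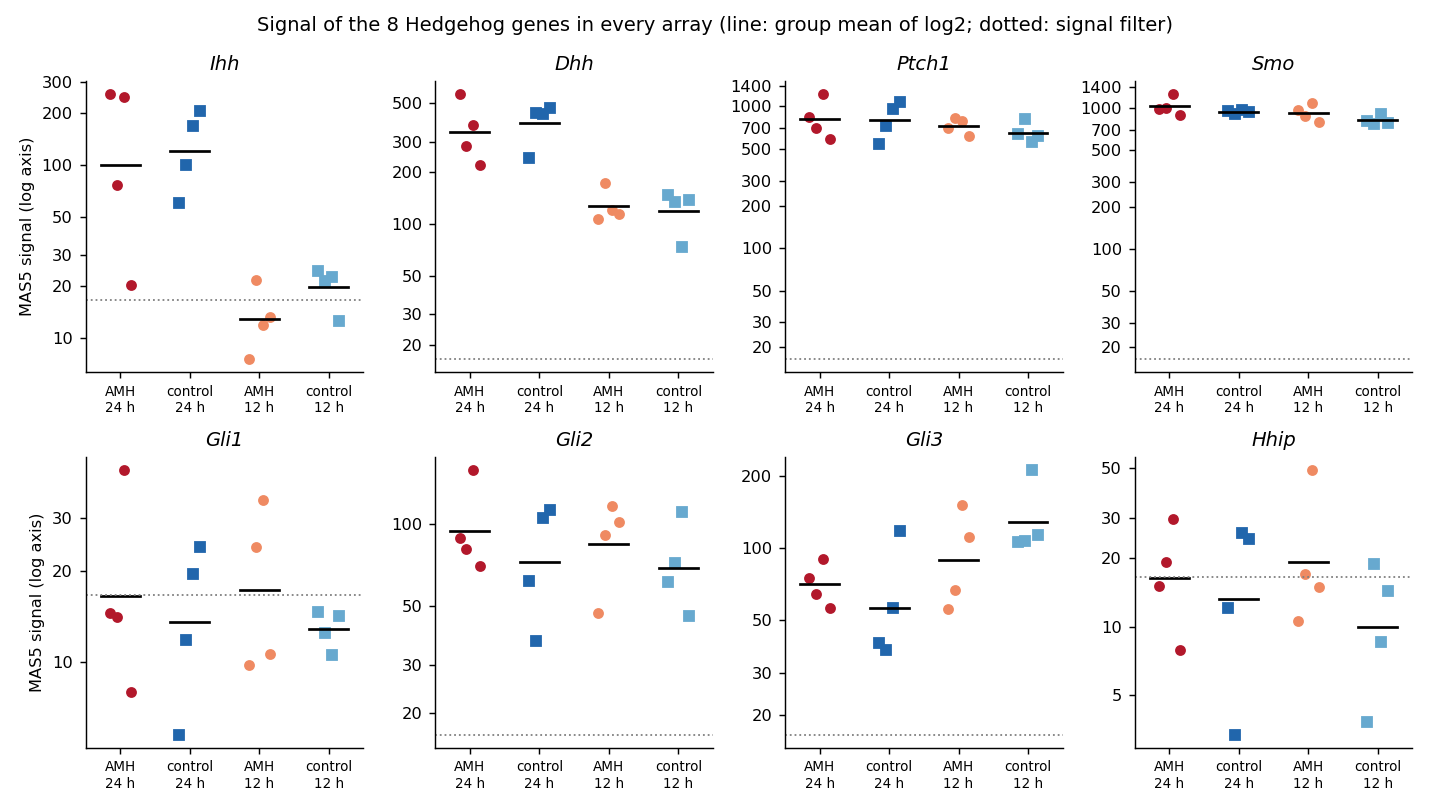
MAS5 signal of the representative probe set of each of the 8 genes on a log axis, with a point for each array and a line at the group mean of log2 values; the dotted line is the signal filter of 16.6. The 24 h arrays of Ihh and Dhh stand above the 12 h arrays, except for the AMH array of Ihh at 20.2, whereas the 24 h and 12 h groups of either arm overlap for the other 6 genes.

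Because both ligands rose together, their promoters are printed, each from 250 bases before to 50 bases after the annotated start in RefSeq (GRCm38.p6), on the gene's own strand. Capitals mark GGGCGG or its reverse complement CCGCCC, the core of the GC box. The Ihh window is chr1:74951623-74951922 and the Dhh window is chr15:98898491-98898790, both on the minus strand.
Ihh promoter: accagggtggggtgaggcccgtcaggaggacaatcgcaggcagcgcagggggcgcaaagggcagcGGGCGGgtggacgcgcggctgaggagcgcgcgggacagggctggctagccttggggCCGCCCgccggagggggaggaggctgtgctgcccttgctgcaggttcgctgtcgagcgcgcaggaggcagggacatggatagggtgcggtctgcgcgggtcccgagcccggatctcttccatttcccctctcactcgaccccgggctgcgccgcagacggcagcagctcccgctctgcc
Dhh promoter: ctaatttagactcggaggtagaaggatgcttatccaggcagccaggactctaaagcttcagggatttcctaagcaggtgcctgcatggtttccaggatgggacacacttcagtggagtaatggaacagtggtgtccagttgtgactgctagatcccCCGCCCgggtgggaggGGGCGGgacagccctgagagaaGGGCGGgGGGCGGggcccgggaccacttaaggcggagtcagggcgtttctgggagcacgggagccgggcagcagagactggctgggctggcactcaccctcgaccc

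The Ihh window was 72.7% G and C and held the GC box 2 times, and the Dhh window was 61.7% G and C and held it 4 times. Across all 32851 promoter windows of that length, 35.7% held a GC box on either strand, as did 6 of the 7 windows found for the 8 genes (Ihh, Dhh, Ptch1, Gli2, Gli3 and Hhip). The GLI motif GACCACCCA, in either orientation, was in 0 of the 7 and in 0.253% of all windows. The cAMP response element TGACGTCA was in 1 of the 7, that of Hhip, at 75 bases before the start, and in 1.79% of all windows. The NR5A motif AAGGTCA was in 0 of the 7 and in 4.72% of all. No matches of these motifs overlapped. These matches describe the letters of the windows.

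Several granulosa markers rose over the same hours. Of 10 measured granulosa genes 5 rose with time in AMH follicles, where 4.34% of all genes tested were called higher, and 7 in controls, where 9.96% were, with median changes of 1.21 and 1.09, against medians of -0.02 and -0.01 over all genes tested. In AMH follicles Foxl2, a granulosa identity factor, rose by 1.04 and Inhba, an activin and inhibin subunit, by 2.17, and Esr2, an oestrogen receptor, Fshr, the receptor for follicle-stimulating hormone, and Hsd17b1, an oestrogen-forming enzyme, rose by 1.89, 2.58 and 1.64; the Hsd17b1 call ended in 15 of 24 alternatives. In controls Foxl2 rose by 1.10, Esr2 by 1.51, Fshr by 2.25 and the AMH receptor Amhr2 by 1.01. Amh, the granulosa gene of the hormone itself, was below 0 in both arms, with -1.56 in AMH follicles (limma adjusted p = 0.0521) and -1.08 in controls (adjusted p = 0.121). The summed signal of the 10 genes ranged from 9186 to 16859 in AMH follicles at 24 h, against 3820 to 9096 in AMH follicles at 12 h. In control follicles it ranged from 8527 to 14392 at 24 h, against 3189 to 7011 at 12 h. The part of the granulosa share in the rise of Ihh and Dhh was not tested.

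The oocyte factors known to act upstream of the ligands did not pass the test with time. Gdf9 had a change of -0.48 with AMH (SE 0.51, limma adjusted p = 0.629) and of -0.38 in controls (SE 0.51, limma adjusted p = 0.65). Bmp15, its close relative, had changes of -0.06 and 0.12. Of 15 oocyte markers 0 were called in either arm by limma, with medians of -0.29 with AMH and -0.35 in controls.

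The receptor Ptch1 and the transducer Smo were not called with time in either arm. Ptch1, on chromosome 13 at 63508328 to 63573460, had signals of 846, 707, 1219 and 591 in AMH follicles at 24 h, against 702, 825, 793 and 617 in AMH follicles at 12 h. Control signals were 547, 732, 960 and 1067 at 24 h, against 635, 821, 557 and 619.5 at 12 h. The groups overlapped in both arms, and the 24 h arrays spread more widely on both sides. Its change with time was 0.15 with AMH (SE 0.22, 95% interval -0.31 to 0.61, limma adjusted p = 0.733) and 0.30 in controls (SE 0.22, 95% interval -0.17 to 0.76, limma adjusted p = 0.371). The upper bounds of both intervals lay under the mean changes of both ligands in the same arm, but the difference between genes was not tested. The second Ptch1 probe set, over the filter, had changes of 0.40 with AMH (SE 0.33) and 0.17 in controls (SE 0.33). The third, under the filter, had 0.12 and 0.28.

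Smo, the membrane protein that Ptch1 holds in check, lies on chromosome 6 at 29735497 to 29761366. Its signals were 977, 1008, 1253 and 899.7 in AMH follicles at 24 h, against 972, 876, 1080 and 793 in AMH follicles at 12 h. In control follicles they were 954, 909, 964 and 943.5 at 24 h, against 816, 769, 915 and 781 at 12 h. The 24 h arrays of controls had an SD of 0.04 in log2 signal (n = 4), the narrowest of the 4 groups of any of the 8 genes. The change with time was 0.15 with AMH (SE 0.11, limma adjusted p = 0.453) and 0.20 in controls (SE 0.11, limma adjusted p = 0.22), and 1 of 24 alternatives, with array weights, called it in controls (0.26, adjusted p = 0.0467).

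Among the Gli factors, Gli3 fell with time in control follicles. Gli3, which acts mainly as a repressor of Hedgehog targets when the ligand is absent, lies on chromosome 13 at 15463723 to 15730026. In control follicles its signals were 40.2, 37.6, 56.0 and 117 at 24 h, against 105, 107, 211 and 113 at 12 h. Replicate 4 at 24 h stood among the 12 h arrays, and the other three 24 h arrays lay below all of them. The change was -1.17 (SE 0.36, limma adjusted p = 0.0324), so its signal was 2.25-fold lower.

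In AMH follicles Gli3 had signals of 74.6, 64.4, 89.9 and 56.2 at 24 h, against 55.4, 66.4, 150 and 110 at 12 h. These groups overlapped, and the change was -0.33 (SE 0.36, 95% interval -1.09 to 0.44, limma adjusted p = 0.644). The difference between the arms, which is the difference of the AMH effect between 24 h and 12 h, was 0.84 (SE 0.42, limma adjusted p = 0.893), so the arms were not shown to differ. The other Gli3 probe sets had changes of -0.86 and -1.16 in controls and of -0.17 and -0.38 with AMH. Neither was called in controls (limma adjusted p = 0.0651 and 0.0519 over all probe sets). The 3 probe sets correlated at 0.82 to 0.93 over the 16 arrays. The control call ended in 8 of 24 alternatives, with changes between -0.93 and -1.57 throughout; among them were the fits without the control array at 211 (-0.93, adjusted p = 0.101), without the control arrays at 24 h of replicate 1, 2 or 3 (adjusted p = 0.0927, 0.094 and 0.0659) and with the 2 groups alone (adjusted p = 0.0555).

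Gli2, the main activator that answers to Smo, did not pass the test with time. It lies on chromosome 1 at 118834061 to 119054405, and its signals were 88.7, 80.9, 159 and 70.3 in AMH follicles at 24 h, against 47.0, 91.2, 117 and 102 in AMH follicles at 12 h. Control signals were 61.7, 36.9, 106 and 113 at 24 h, against 61.1, 72.0, 111 and 45.9 at 12 h. The groups overlapped in both arms, with changes of 0.16 with AMH (SE 0.38, limma adjusted p = 0.852) and 0.07 in controls (SE 0.38, limma adjusted p = 0.922). Its 2 probe sets correlated at 0.82.

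Gli1 and Hhip, the most direct readouts of the pathway, were near the floor, and their values come from the fit without a filter. Gli1, a factor that the pathway both induces and uses, lies on chromosome 10 at 127329882 to 127341579. Its signals were 14.5, 14.1, 43.5 and 7.89 in AMH follicles at 24 h, against 9.72, 24.1, 34.5 and 10.6 in AMH follicles at 12 h. In control follicles they were 5.72, 11.8, 19.6 and 24.0 at 24 h, against 14.7, 12.4, 10.6 and 14.2 at 12 h. With AMH, the signals over the filter were 43.5 at 24 h, and 24.1 and 34.5 at 12 h. In controls they were 19.6 and 24.0 at 24 h. All 4 groups overlapped. The change with time was -0.06 with AMH (SE 0.50) and 0.07 in controls (SE 0.50), with limma adjusted p values of 0.971 and 0.954.

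Hhip encodes a cell-surface protein that binds and sequesters the ligands, and lies on chromosome 8 at 79965850 to 80058060. Its signals were 15.0, 19.3, 29.9 and 7.89 in AMH follicles at 24 h, against 10.6, 17.0, 49.0 and 15.0 in AMH follicles at 12 h. In control follicles they were 12.2, 3.35, 25.9 and 24.4 at 24 h, against 3.81, 18.9, 8.55 and 14.4 at 12 h. The groups overlapped, with changes of -0.22 with AMH (SE 0.59) and 0.36 in controls (SE 0.59), and limma adjusted p values of 0.908 and 0.759. All 4 Hhip probe sets lay under the filter. The 95% intervals of Gli1 ran from -1.11 to 0.99 with AMH and from -0.98 to 1.12 in controls, and those of Hhip from -1.47 to 1.02 with AMH and from -0.88 to 1.60 in controls, so smaller changes were not detectable at these signals.

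Of the 6 tested Hedgehog genes 2 were called higher and 0 lower in AMH follicles, where 4.34% of all genes tested were called higher and 3.94% lower. In controls 2 of 6 were called higher and 1 lower, where 9.96% were called higher and 9.19% lower; those were 1212 and 1118 genes, and with each array centred on its median the split was 612 higher and 1873 lower. Since Ihh, one of the genes called higher, passed the filter through its 24 h arrays, these counts are a description and are not read against those shares. The time comparisons of the arms use separate arrays, but they are not independent. The AMH and control follicles of an experiment shared its pool of mice, so a rise in both arms is not a replication. The part of differences between pools in the changes with time was not tested.

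**Figure D2:**
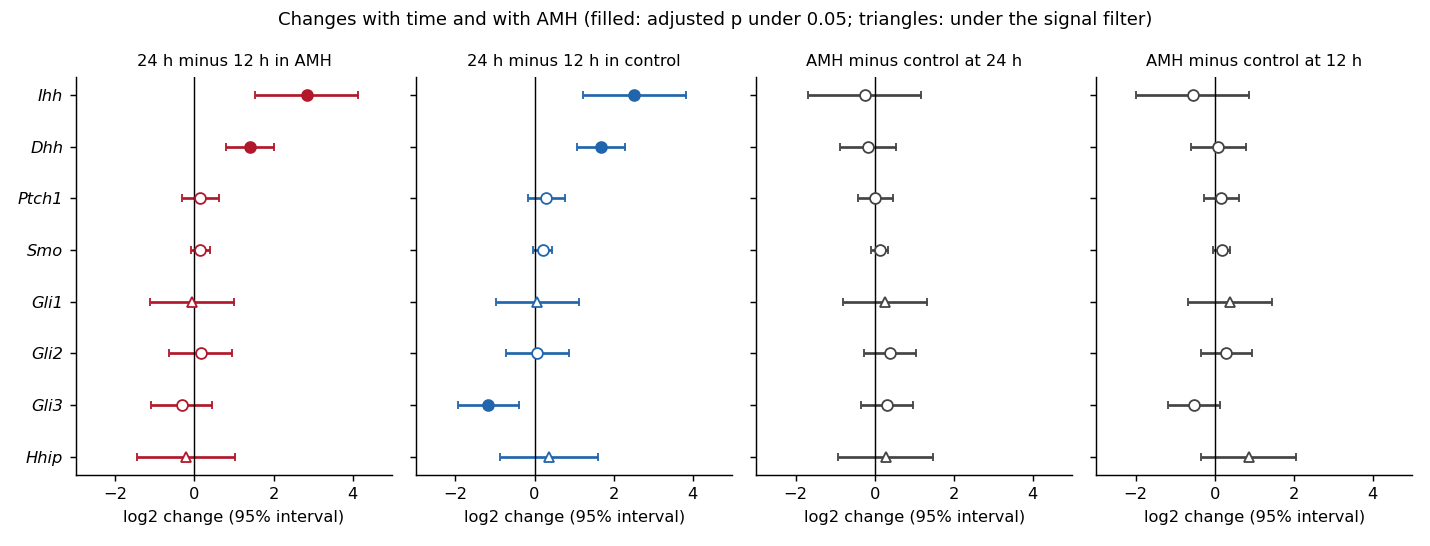
Log2 change of each gene with its 95% interval, for 24 h minus 12 h in AMH follicles and in controls (left panels) and for AMH minus control at 24 h and at 12 h (right panels). Filled symbols passed an adjusted p of 0.05 and triangles are the genes under the filter: Ihh and Dhh are filled in both time panels, Gli3 in controls, and no symbol is filled for AMH.

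Across probe sets, the genes differed in how well their own probe sets matched. The first and second Ptch1 probe sets correlated at 0.75 and the third, under the filter, at 0.17 and 0.25 with them. The 3 Smo probe sets correlated at 0.06, 0.63 and -0.28, and their changes in controls were 0.20, 0.29 and 0.66, against 0.15, 0.42 and -0.14 with AMH. The values given above for Smo are those of its brightest probe set. The 4 Hhip probe sets correlated at 0.64 to 0.88.

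**Figure D3:**
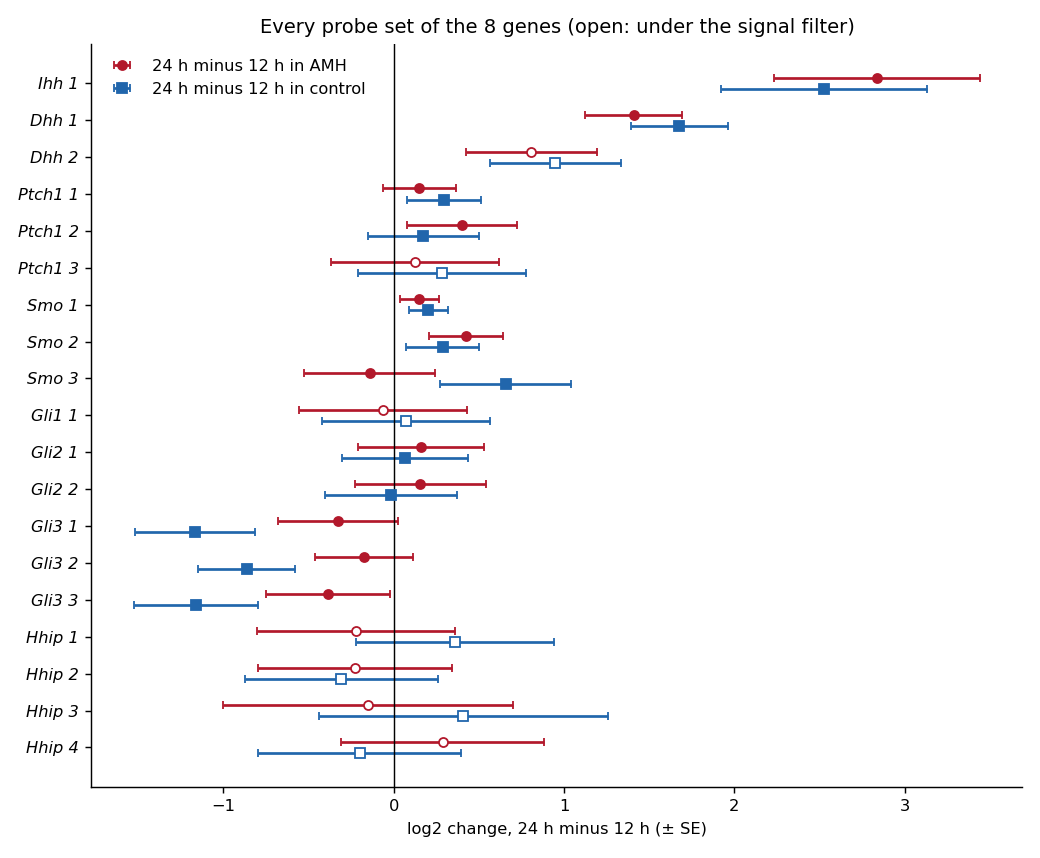
Log2 change between 12 h and 24 h (24 h minus 12 h, ± SE) of each of the 19 probe sets in AMH follicles (circles) and controls (squares); open symbols lie under the filter and probe sets are numbered by falling mean signal within a gene. Both Dhh probe sets lie right of 0, and the 3 Gli3 probe sets lie left of 0, further in controls than with AMH.

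No Hedgehog gene passed the test for AMH at either time. At 24 h, 0 of the 6 tested genes were called, where 0.0164% of all genes tested (2 of 12172) were, and at 12 h 0 of 6 were called, where 0% were. By an unadjusted limma p under 0.05 the counts were also 0 of 6 at both times, against 4.07% of all genes at 24 h and 6.47% at 12 h. Among the other probe sets, the third of Gli3 had -0.78 at 12 h, below 0 in 4 of 4 pairs, with an unadjusted limma p of 0.0274 and an adjusted p of 0.791 over all probe sets. The median change of the 6 was 0.07 at 24 h and 0.13 at 12 h, against 0.01 at both times over all genes tested.

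The ligands spread widely between pairs. AMH minus control for Ihh was 2.07, -0.38, 0.57 and -3.25 in pairs 1 to 4 at 24 h, and -1.52, 0.03, -0.83 and 0.07 in pairs 1 to 4 at 12 h. The means were -0.25 at 24 h (SE 0.65, 95% interval -1.68 to 1.18) and -0.56 at 12 h (SE 0.65, 95% interval -1.99 to 0.87), with limma adjusted p values of 1 and 0.933. For Dhh the means were -0.18 at 24 h (95% interval -0.88 to 0.53) and 0.09 at 12 h (95% interval -0.61 to 0.79).

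Ptch1 had an AMH change of 0.02 at 24 h (SE 0.20, 95% interval -0.42 to 0.45) and of 0.16 at 12 h (SE 0.20, 95% interval -0.27 to 0.60). Smo had 0.12 at 24 h (SE 0.10, 95% interval -0.09 to 0.33) and 0.18 at 12 h (SE 0.10, 95% interval -0.04 to 0.39). Smo was above 0 in 3 of 4 pairs at 24 h and 4 of 4 at 12 h, and averaged over both times its change was 0.15 (SE 0.07, above 0 in 7 of 8 pairs, limma adjusted p = 0.999). Over 23 alternatives this mean ranged from 0.02 to 0.21 and was not called in any. These Smo values are those of its brightest probe set, and the other Smo probe sets did not share them. The next in brightness had -0.17 at 12 h, -0.03 at 24 h and -0.10 over both times (SE 0.14, above 0 in 3 of 8 pairs). The dimmest had 0.425 at 12 h, -0.38 at 24 h and 0.02 over both times (SE 0.21, above 0 in 5 of 8 pairs). The share of all genes tested that were above 0 in 7 of 8 pairs is not given here.

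For the Gli factors and Hhip, Gli3 was below 0 in 4 of 4 pairs at 12 h, at -0.91, -0.67, -0.49 and -0.04, with a mean of -0.53 (SE 0.29, limma adjusted p = 0.802). At 24 h its pairs stood at 0.87, 0.75, 0.67 and -1.04, with a mean of 0.31 (SE 0.29, limma adjusted p = 1). Genes of a single direction in all 4 pairs, as Smo and Gli3 were at 12 h, made up 17.9% of all genes tested there. Gli2 had 0.38 at 24 h and 0.29 at 12 h (SE 0.30 at both). Under the filter, Gli1 had 0.26 at 24 h and 0.39 at 12 h, and Hhip 0.28 at 24 h and 0.86 at 12 h, with SEs between 0.49 and 0.55.

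At 24 h all 8 genes were higher with AMH in pair 1 and lower in pair 4. Smo differed by only 0.03 and -0.07 there, and Gli1 and Hhip lay under the filter. The share of all genes tested that were higher or lower in these pairs was not computed. In pair 1 the AMH array had an oocyte mean of 9.03 and the control array 8.00. Their summed granulosa signals were 16859 and 8527, the highest of the AMH arrays and the lowest of the control arrays at 24 h. In pair 4 all 8 genes were lower with AMH, and the AMH array of that pair was the lowest of its group for 8 of 8 genes, as it was for 25.5% of all genes tested. The control array of that pair was the highest of its group for 6 of the 8 genes, as it was for 33.1% of all. That AMH array also had the lowest summed granulosa signal of its group, 9186, and the lowest summed signal of the theca progenitor and fibroblast genes, 5424, against up to 8752 in the others. Not all its sums were low. Its sum of the Hedgehog reception genes, 1720, was the highest of its group. Its smooth muscle sum was 2698, against 2113 to 2707 in the others, and its steroidogenic theca sum 9418, against 6821 to 12460. Its control partner had the highest oocyte mean of the 24 h controls, a log2 of 9.11 against 7.68 to 8.00. The part of cell makeup in these array differences was not tested.

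Between arrays, Ptch1 and Gli1, both targets of the pathway, varied together, with Gli1 under the filter. After group means were taken out, Ptch1 and Gli1 correlated at r = 0.864 over the 16 arrays (permutation p = 0.00065, adjusted p = 0.011 over 17 relations computed) and at rho = 0.871 (permutation p = 0.00045, adjusted p = 0.00765). Without the 2 arrays farthest out in Ptch1, r was 0.76. At 24 h alone r was 0.983 (8 arrays, permutation p = 0.00184, adjusted p = 0.0313), and at 12 h alone it was 0.537 (8 arrays, permutation p = 0.168, adjusted p = 0.357). The relation passed at 24 h and did not pass at 12 h, and the difference between times was not tested.

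For the ligands, Ihh and Ptch1 had r = 0.757 (permutation p = 0.00854, adjusted p = 0.0656; rho = 0.732, permutation p = 0.0117, adjusted p = 0.0817), with 0.85 at 24 h, 0.271 at 12 h and 0.81 without the 2 arrays farthest out in Ihh. Ihh and Gli1 had r = 0.687 (permutation p = 0.0216, adjusted p = 0.0656; rho = 0.688, permutation p = 0.0156, adjusted p = 0.0817), with 0.796 at 24 h and 0.355 at 12 h. Dhh and Ptch1 had r = 0.672 (permutation p = 0.0231, adjusted p = 0.0656; rho = 0.606, permutation p = 0.0309, adjusted p = 0.0817), and 0.55 without the 2 arrays farthest out in Dhh. None of these passed the adjustment, and no difference between correlations was tested. Hhip followed Gli1 at r = 0.62 (permutation p = 0.0231, adjusted p = 0.0656; rho = 0.597, adjusted p = 0.0817), and its relations with Ihh and Dhh were 0.379 and 0.157.

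With the mean of the 15 oocyte markers, Gli3 had r = 0.592 (permutation p = 0.0154, adjusted p = 0.0656; rho = 0.456, permutation p = 0.067, adjusted p = 0.114). Gli2 had r = 0.506 (permutation p = 0.0772, adjusted p = 0.146; rho = 0.55, adjusted p = 0.0955). Ihh had r = 0.462 (permutation p = 0.0958, adjusted p = 0.163; rho = 0.547, permutation p = 0.0419, adjusted p = 0.0891). None of the 3 passed, and their order differed between r and rho. For Gli3 r was 0.651 at 24 h and 0.535 at 12 h, and 0.453 without the 2 arrays farthest out. In a fit that held the oocyte mean as a covariate, Gli3 in controls had a change of -1.03 (adjusted p = 0.0267). The arrays share 1 scaling each, which enters both measures of a relation.

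**Figure D4:**
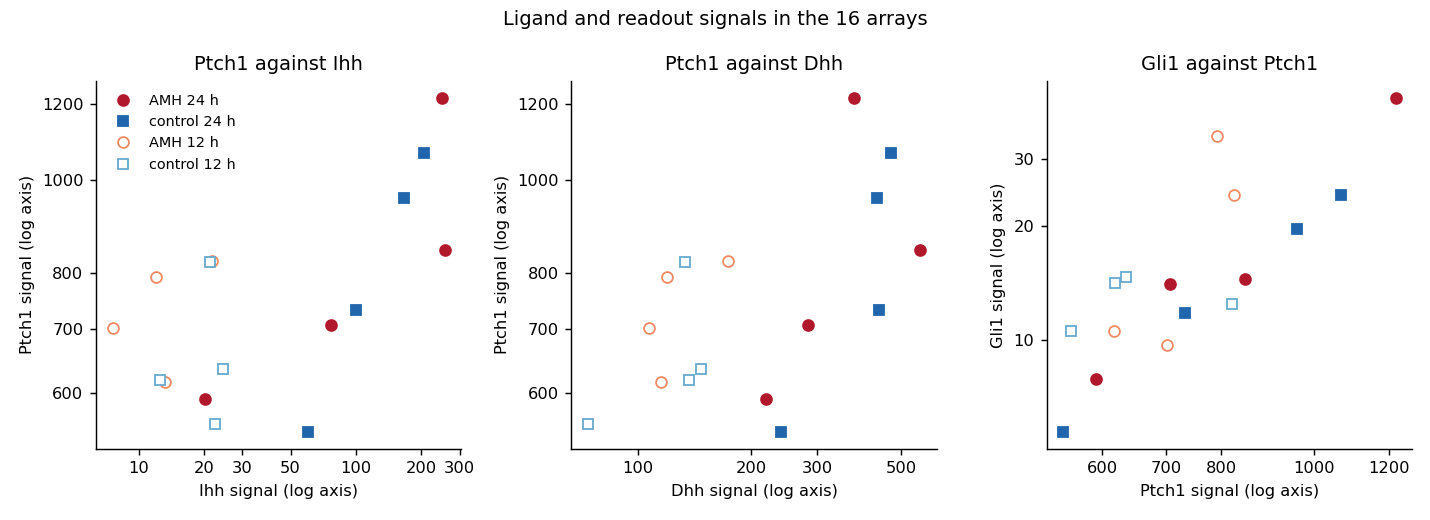
Signal of Ptch1 against Ihh and against Dhh, and of Gli1 against Ptch1, in the 16 arrays on log axes (circles AMH, squares control; filled 24 h, open 12 h). The 8 filled points of the right panel rise together, from 5.72 to 43.5 in Gli1, whereas the open points scatter.

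Other genes of the pathway were called singly with time. Of all genes tested, 4.34% were called higher and 3.94% lower with AMH, and 9.96% and 9.19% in controls. Of 4 tested genes of ligand processing and release, 0 passed by limma in either arm, with medians of 0.34 with AMH and 0.27 in controls, and the smallest p was that of Scube1, a secreted helper of ligand release, at 1.20 (adjusted p = 0.0698) and 1.13 (adjusted p = 0.0537). Its relative Scube2, named here after its values were seen and under the filter, had 1.03 with AMH and 1.45 in controls in the fit without a filter, with adjusted p values of 0.166 and 0.0252. Of 7 tested genes of reception, Evc2, part of the complex at the cilium base that passes on the Smo signal, rose by 0.93 with AMH (limma adjusted p = 0.0398), a call that ended in 14 of 24 alternatives. In controls Evc2 had 0.70 (adjusted p = 0.0751). Gpc3, a glypican that competes for the ligands, fell in controls by 1.37 on the log2 scale (limma adjusted p = 0.00899), 2.58-fold, and had -1.02 with AMH (adjusted p = 0.0641).

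Of 11 genes of the relay to Gli in the cytoplasm, which include the Gli inhibitor Sufu and the kinesin Kif7, 0 passed by limma in either arm. Their medians were -0.04 with AMH and -0.02 in controls, and the largest change in controls was 0.33, of the protein kinase A subunit Prkacb (adjusted p = 0.0522). Of 8 tested genes of transport in the primary cilium, the organelle that houses the pathway, Ift88 rose in controls by 0.89 (limma adjusted p = 0.0389), a call that ended in 13 of 24 alternatives, and had 0.33 with AMH (adjusted p = 0.528). Of 8 tested genes known as Hedgehog targets in other tissues, Sfrp1, a secreted Wnt antagonist, rose in both arms, by 1.87 with AMH (limma adjusted p = 0.000264) and by 1.11 in controls (limma adjusted p = 0.00393). The medians of that list were -0.09 with AMH and -0.12 in controls, and among its other members Foxm1, a cell cycle factor, had -0.80 and -1.35 (adjusted p = 0.372 and 0.0754) and Mycn, a transcription factor of the Myc family, 1.52 and 1.23 (adjusted p = 0.0745 and 0.102).

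AMH passed the test in none of these lists. The median AMH changes at 24 h were 0.11 for ligand release, 0.25 for reception, -0.01 for the relay, 0.11 for the cilium and 0.08 for the targets in other tissues. At 12 h they were 0.03, 0.00, 0.04, 0.11 and -0.14 in the same order.

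Some theca genes were called higher with time, where 4.34% of all genes tested were called higher with AMH and 9.96% in controls. Of 6 measured steroidogenic theca genes, Cyp17a1, which turns progestins into androgens, rose in AMH follicles and Hsd3b1, an earlier enzyme of steroid synthesis, in controls. Cyp17a1 had signals of 69.1, 45.8, 157 and 72.1 in AMH follicles at 24 h, against 3.92, 11.8, 21.2 and 15.7 in AMH follicles at 12 h. Control signals were 20, 29.8, 46.8 and 29.6 at 24 h, against 16.8, 12.9, 30.1 and 19.9 at 12 h. The AMH groups did not overlap and the control groups did. The change with time was 2.61 with AMH (SE 0.44, limma adjusted p = 0.00205), or 6.11-fold, and 0.63 in controls (SE 0.44, limma adjusted p = 0.341). The control change was called in 1 of 23 alternatives. The difference of 1.99 between the arms did not pass (SE 0.45, limma adjusted p = 0.323).

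Set against control, Cyp17a1 was above 0 in 4 of 4 pairs at 24 h, at 1.72, 0.60, 1.72 and 1.25 in pairs 1 to 4. At 12 h it was below 0 in 4 of 4 pairs, at -1.76, -0.11, -0.48 and -0.32. Genes of a single direction in all 4 pairs made up 17.9% of all genes tested at 12 h, and that share is not given here for 24 h. The Cyp17a1 means were 1.32 at 24 h (SE 0.32, limma adjusted p = 0.652) and -0.67 at 12 h (SE 0.32, limma adjusted p = 0.778). Of its 4 AMH arrays at 12 h, 3 were under the filter. Hsd3b1 rose by 0.88 in controls (limma adjusted p = 0.00699) and had 0.49 with AMH (adjusted p = 0.145). The medians of the steroidogenic list were 0.67 with AMH and 0.73 in controls.

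Of 9 measured theca progenitor and fibroblast genes 3 rose in AMH follicles, where 4.34% of all genes tested were called higher. In controls 5 rose, where 9.96% of all were called higher. The proteoglycan Dcn rose by 1.32 and 1.42, the mesenchymal factor Tcf21 by 1.07 and 1.04 and the proteoglycan Lum by 1.55 and 1.67, the first value being that with AMH. The collagen genes Col1a1 and Col1a2 rose in controls by 0.98 and 0.78, and had 0.42 and 0.57 with AMH. The AMH calls of Lum ended in 14 of 24 alternatives and of Tcf21 in 4. The Dcn change with AMH was 0.77 (limma adjusted p = 0.13) with the mean of its probe sets. The control call of Col1a2 ended in 10 of 24, and that of Lum held in 18 of 24. The summed signal of the 9 genes ranged from 5424 to 8752 in AMH follicles at 24 h, against 3746 to 6164 in AMH follicles at 12 h, and from 4561 to 6911 in controls at 24 h, against 2534 to 5018 at 12 h.

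Of 7 tested smooth muscle genes, which mark the outer theca as well as vessels, Myl9, a myosin light chain, rose by 1.65 with AMH and by 2.08 in controls (limma adjusted p = 0.00344 and 0.000348). Myl9 was the 1 call of that list in each arm, where 4.34% of all genes tested were called higher with AMH and 9.96% in controls. The median changes of that list were 0.84 with AMH and 0.55 in controls. The theca genes with the smallest p for AMH did not pass either. Col1a2 and Col1a1 had changes of 0.62 and 0.75 at 12 h (limma adjusted p = 0.446 for both). Pdgfra, a receptor of mesenchymal cells, had 0.55 at 24 h (limma adjusted p = 0.813). Dcn had 0.72 over both times (limma adjusted p = 0.397) and was called in 3 of 23 alternatives. The Dcn change was 0.88 (adjusted p = 0.00466) without the pair of replicate 4 at 24 h. With the mean of its probe sets it was 0.35 (adjusted p = 0.999).

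**Figure D5:**
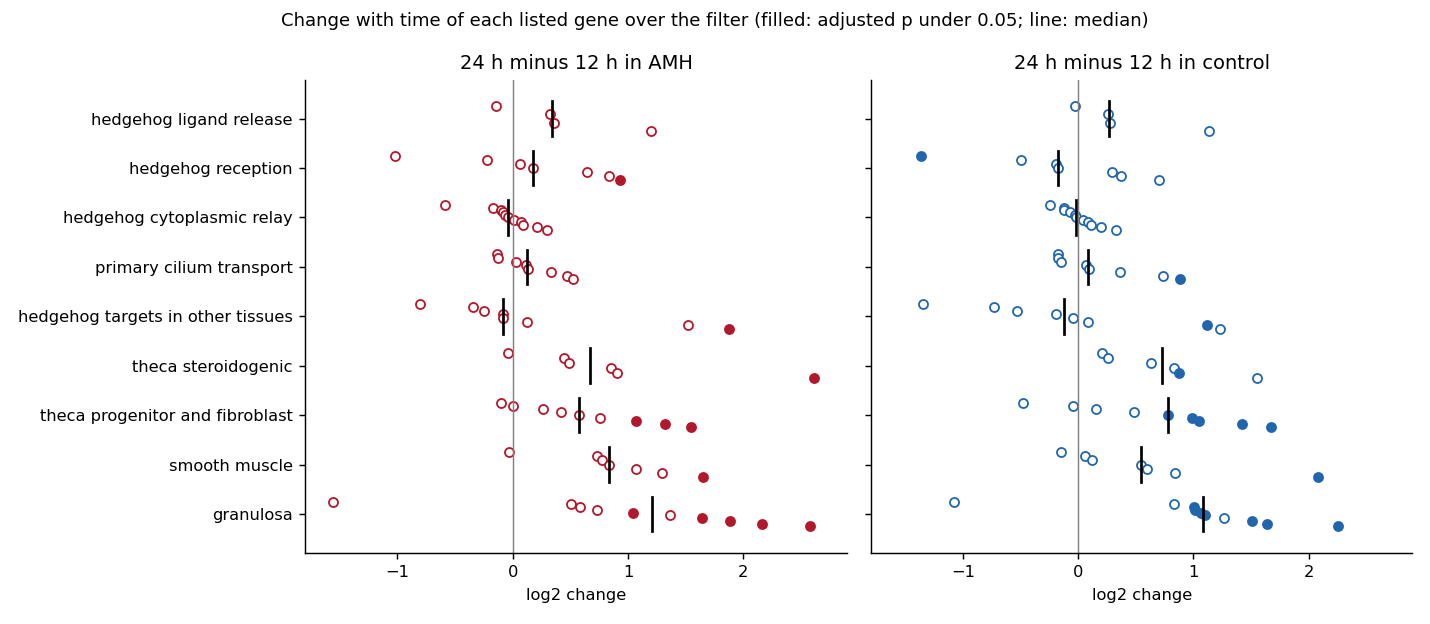
Log2 change, 24 h minus 12 h, of each listed gene over the filter, in AMH follicles (left) and controls (right); filled points passed an adjusted p of 0.05 and the black line is the list's median. The medians of the relay and cilium lists lie near 0, and the granulosa list has the highest medians, 1.21 and 1.09.

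Some markers of other cells fell with time, where 3.94% of all genes tested were called lower with AMH and 9.19% in controls. Of 6 tested immune genes Csf1r, a macrophage receptor, fell by 2.05 on the log2 scale with AMH and by 2.23 in controls, and Cd74, which takes part in antigen presentation, fell by 1.74 in controls. The list as a whole had 4 of 6 genes above 0 with AMH, with a median of 0.10, and 0 of 6 in controls, with a median of -0.39. The summed immune signal ranged from 414 to 1060 in AMH follicles at 24 h, against 450.4 to 1288 in AMH follicles at 12 h, and from 323 to 483 in controls at 24 h, against 629.7 to 1359 at 12 h. The keratins Krt8 and Krt18 of the surface epithelium fell in both arms, by 1.12 and 1.13 with AMH and by 0.84 and 1.07 in controls. Of the 7 genes of that list 5 were below 0 with AMH and 6 in controls, while the uroplakin Upk3b had 1.28 and 1.29 and did not pass (adjusted p = 0.156 and 0.104). The endothelial gene Emcn fell in controls by 1.22, a call that ended in 13 of 24 alternatives. The part of these cells in the results on Hedgehog and theca genes was not tested.

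The genes most like each tested Hedgehog gene over the 16 arrays were found by Pearson's r of log2 signal among 12171 others, which is a description of arrays that share 4 groups. For Ihh they were the carbonic anhydrase Car3 at 0.948, the retinol receptor Stra6 at 0.939 and Lrp4 at 0.938. For Dhh they were Carhsp1 at 0.97, Trim62 at 0.963 and the anion transporter Slc26a7 at 0.96. Both sets of values carry the difference between times.

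For Ptch1 the likest genes were Fgfbp3 at 0.876, Susd4 at 0.85 and Wipf3 at 0.826, and for Smo the T-box factor Tbx2 at 0.871, Atp6v1g2 at 0.847 and Igsf10 at 0.839. Gli2 was most like Fbln7 at 0.888, Svil at 0.854 and Stox2 at 0.844. Gli3 was most like Casp8ap2 at 0.949, the nuclear pore gene Nup160 at 0.934 and Gtdc1 at 0.932. None of these 6 genes was among the 3 likest of another; Gli1 and Hhip, under the filter, were not part of this search.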

How the data were processed

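RNA of cultured follicles was hybridised to 16 arrays, and the deposited file holds linear signal intensity for each probe set. Per the submitters' processing notes the authors made it with MAS5, in a version not given in the sources used here. After trimming 2% at both ends, every array averaged 150.001. Detection calls were not analysed here. An offset of 1.46, the 10th percentile of the signals, was added before taking log2. The array has 45101 probe sets, among them 64 controls, which were dropped, and 34945 with a single symbol. Those under the 40th percentile of mean log2 (4.18) were filtered out, and the brightest probe set stood for its gene, leaving 12172 genes. limma 3.58.1 (R 4.3.3) with a mean-variance trend gave the tests, adjusted by Benjamini-Hochberg at 0.05. For AMH the 8 pairs entered as a block, since the design text names them as comparable. As a check on pairing, the deviations of the 2 arrays of a pair gave correlations of -0.434, 0.268, 0.137 and -0.2 at 24 h (replicates 1 to 4), with 0.284, 0.335, 0.527 and 0.212 at 12 h. Time was tested on 4 group means without a block. Relations between genes used deviations from group means and 100000 two-sided permutations within groups. The models were run on simulated data with known changes, drawn without pair or array effects, so that run did not test the pairing.

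The 8 genes and the gene lists were chosen with earlier results of these data known. All 8 genes are named; of the other lists, every gene past the threshold where at most 6 passed and otherwise the 4 with the smallest p, where none passed (AMH) the 2 pathway or theca genes with the smallest p, and Cyp17a1, Gdf9 and Bmp15 always. Amh, Upk3b, Mycn, Scube1, Scube2, Prkacb, Foxm1, Sufu, Kif7 and members named in the arm where they did not pass were added after their values were seen. Some listed genes are not reported here. Replicates are separate experiments, each with a pool of mice, per the labels' protocols; nothing says whether the times share a pool, and p values measure the spread between these arrays. Promoters are RefSeq's (GRCm38.p6), and 7 of the 8 genes matched. Alternatives were other offsets, filters, scalings, probe set rules, array weights, robust moderation, blocks, an oocyte covariate, fewer arrays and left-out arrays. Python 3.11.15 and matplotlib 3.10.9 were used for the rest.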

Additional observations from a re-analysis of the deposited data

Results flagged for a closer look

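Of 44 groups of 4 arrays examined for the 8 Hedgehog genes and the genes Cyp17a1, Gdf9 and Bmp15, 4 held an array whose gap to its nearest neighbour as a share of the group's range was over Dixon's 95% critical value; chance alone gives about 1 in 20 groups. Dhh was low in replicate 1 of the control follicles at 24 h, at a signal of 239.9 against 437.6, 432.6 and 470.7 (0.875 of the range). Dhh was also low in replicate 3 of the control follicles at 12 h, at 73.6 against 147.3, 133.3 and 136.9 (0.856 of the range). Gli3 was high in that same array, at 211 against 105.3, 106.8 and 113.1 (0.897 of the range). Gdf9 was high in replicate 4 of the control follicles at 24 h, at 725.1 against 271.6, 235.9 and 272.7 (0.871 of the range). The mean log2 signal of the 15 oocyte markers was 9.11 in that array and 9.49 in replicate 3 of the control follicles at 12 h, each the highest of its group.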

How the results depend on the processing

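Counts of genes called moved most with array weights, to 7 for AMH at 24 h (2 as reported), 3 at 12 h (0), 6 for the mean of both times (0), 21 for the difference of the AMH effect (0), 1857 with time in AMH follicles (1008) and 3945 in controls (2330). For AMH at 24 h the count was 0 with no filter, quantile normalization, the mean of probe sets, only the 2 groups compared, every probe set with or without the filter, and no replicate block. At 12 h it was 1 with quantile normalization and with every probe set, with or without the filter, and 2 with the oocyte covariate; the difference gave 1 and 2 with quantile normalization and the oocyte covariate. With time the counts were 564 with arrays centred on their median in AMH follicles, and 1566 in AMH follicles and 3673 in controls with every probe set over the filter. With arrays centred, the median change of all genes was 0.122 for AMH at 24 h (0.00603 as reported), 0.149 for the difference (-0.00241) and -0.194 with time in controls (-0.0138). Leaving out arrays gave 0 to 1 calls for AMH at 24 h, 0 to 2 for the mean, 0 to 1 for the difference, 344 to 948 with time in AMH follicles and 1185 to 2189 in controls. One relation passed in all arrays and 0 in the 12 h arrays alone.

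The pairs come from the labels. Without the replicate block no named gene's AMH call changed, and with the replicate block as a term the time counts were 1235 in AMH follicles and 2634 in controls, with Ihh at 2.84 (limma adjusted p = 0.014) with AMH and 2.53 (0.0131) in controls, Dhh at 1.41 (0.0139) and 1.68 (0.00275), and Gli3 at -1.17 (0.0138) in controls.

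Values that changed sign were not called. With the oocyte covariate they were Gdf9 0.0197 at 24 h, 0.139 at 12 h and 0.0796 in the mean, Bmp15 0.087 at 12 h and 0.263 with time in AMH follicles, and Dhh 0.0205 in the mean. With quantile normalization they were Ptch1 -0.0125 at 24 h and Gli2 -0.0524 with time in controls, with the mean of probe sets Smo -0.0957 at 24 h, and with array weights the difference of Smo, 0.0559. Centred arrays gave differences of 0.00668 for Ptch1, 0.0999 for Smo and 0.0463 for Gdf9, and with time in controls -0.111 for Gli2 and -0.0644 for Bmp15. Correlations changed sign at 12 h alone for Ihh with Hhip (-0.111) and for the oocyte mean with Dhh (-0.542), Ptch1 (-0.132) and Hhip (-0.149), at 24 h alone for it with Smo (-0.0966), and for it with Hhip without the 2 farthest arrays (-0.116) and with centring (-0.0333). The cause was not tested.

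Leaving out arrays, AMH changes at 24 h ran from -1.02 to 0.75 for Ihh, -0.64 to 0.13 for Dhh, -0.19 to 0.31 for Ptch1, -0.76 to 0.31 for Gdf9 and -0.477 to 0.165 for Bmp15. At 12 h they ran from -0.11 to 0.27 for Dhh, -0.49 to 0.26 for Gdf9 and -0.51 to 0.215 for Bmp15. Means of both times ran from -0.792 to 0.0951 for Ihh, -0.28 to 0.17 for Dhh, -0.0211 to 0.264 for Ptch1, -0.20 to 0.12 for Gli3, -0.40 to 0.14 for Gdf9 and -0.369 to 0.0566 for Bmp15. Differences ran from -0.78 to 1.53 for Ihh, -0.915 to 0.0411 for Dhh, -0.355 to 0.144 for Ptch1, -0.137 to 0.0119 for Smo, -0.17 to 0.72 for Gli2, -0.87 to 0.80 for Gdf9 and -0.68 to 0.67 for Bmp15. Changes with time ran from -0.045 to 0.302 for Ptch1, -0.12 to 0.39 for Gli2 and -0.41 to 0.20 for Bmp15 in AMH follicles, and from -0.33 to 0.40 for Gli2, -1.24 to 0.0939 for Gdf9 and -0.82 to 0.62 for Bmp15 in controls. Among single genes 115 further values kept their direction and lost the call and 5 gained it. Signals near the floor limit what can be said of Gli1, Hhip and, at 12 h, Ihh and Cyp17a1.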

Other observations

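Immune markers stood higher with AMH in these arrays, without passing the test. All 6 tested immune genes were above 0 at 24 h, with a median AMH change of 0.71, and all 6 at 12 h, with a median of 0.24, and the smallest limma adjusted p values were 0.813 at 24 h and 0.824 at 12 h. Of 9 endothelial markers 8 were above 0 at 24 h (median 0.25) and 1 at 12 h (median -0.45), with 0 called. Of 15 oocyte markers 14 were below 0 at 24 h (median -0.16) and 13 at 12 h (median -0.12), with 0 called. Among all genes tested, 51.6% were above 0 at 24 h and 52% at 12 h.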
